A study of Rattus norvegicus with 6 samples.

Results

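The non-classical (class Ib) major histocompatibility complex genes described here are RT1-M2, RT1-M3-1, RT1-M6-1, RT1-M6-2, RT1-N3, RT1-S2, RT1-T18 and RT1-T24-4, measured in the renal cortex of rats given N-nitrosodimethylamine (NDMA) or water. RT1 is the rat major histocompatibility complex. The probes of these 8 genes were found by matching the transcript each probe was designed for to the RefSeq transcripts of the genes, which gave 17 of the 61657 probes on the array. The 8 genes are among 15284 with a symbol and a probe. The genes were picked with their NDMA against control differences known, so those differences are a description of the genes and carry no test.

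NDMA is a nitrosamine whose oxidation in tissues yields a DNA-methylating species. The tested animals were 3 male Sprague-Dawley rats given NDMA at 4 mg/kg/day over 4 weeks, and the controls were 3 male Sprague-Dawley rats given water over the same time. All had been bought at 5 weeks of age and were fed a basal diet. Sprague-Dawley rats are an outbred stock, and the RT1 haplotypes of the animals were not given in the sources used here.

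Class I molecules are cell-surface proteins made of a heavy chain, the light chain beta-2-microglobulin and, in most cases, a short bound peptide. Classical (class Ia) heavy chains are highly polymorphic and show peptides from inside the cell to CD8 T cells. Class Ib heavy chains are less polymorphic, are often expressed at low levels or in few tissues, and include molecules read by natural killer cells and by specialised T cells. In many cell types interferons raise the transcription of class I heavy chains together with the genes that cut, transport and load their peptides, and kidney tubules are among the tissues where class I is known to be inducible.

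Levels below are log2 of the spot's processed intensity relative to the 75th percentile of its own array, so that 0 is the intensity at that percentile, and differences are NDMA minus control on this log2 scale. Levels of different probes are not compared, because each probe binds with its own strength. Between 43016 and 46248 probes per array were well above background, and 43118 that were so on all 3 arrays of at least 1 group entered the fit. The 3 controls and NDMA animal 1 shared slide 1, while NDMA animals 2 and 3 were on slide 2, scanned on another day. All 10 proximal tubule markers listed were measured. Of these 1, Lrp2, fell, against 0.485% of all genes with a symbol, and 9 did not pass, with differences from -0.70 to 0.20. Their levels were also summed on the linear scale, in multiples of the 75th percentile. The sums were 1887 to 2059 in NDMA animals and 2313 to 2788 in controls. The 5 measured medulla markers did not pass (lowest adjusted p = 0.202 in limma, for Aqp2), with differences from -0.46 to 0.39. They summed to 354 to 373 in NDMA animals and 387 to 522 in controls. Every NDMA animal was thus below every control in both sums, which are carried mostly by the brightest probes.

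The promoters of 7 of the 8 genes were in the RefSeq table of rat assembly GRCr8, as windows from 250 bases before to 50 bases after the gene start, 5′ to 3′ on the gene's strand. Those of RT1-N3, RT1-S2 and RT1-M3-1 are shown because they hold a match to a sequence bound by interferon-activated factors: capitals mark the interferon-stimulated response element core (GAAA, any 2 bases, GAAA) in RT1-N3 and RT1-S2, here on the opposite strand and therefore read as TTTC, 2 bases, TTTC, and the gamma-activated site TTCNNNGAA in RT1-M3-1. Capitals also mark each CCAAT box.

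RT1-N3, chr20:2666239-2666538, plus strand: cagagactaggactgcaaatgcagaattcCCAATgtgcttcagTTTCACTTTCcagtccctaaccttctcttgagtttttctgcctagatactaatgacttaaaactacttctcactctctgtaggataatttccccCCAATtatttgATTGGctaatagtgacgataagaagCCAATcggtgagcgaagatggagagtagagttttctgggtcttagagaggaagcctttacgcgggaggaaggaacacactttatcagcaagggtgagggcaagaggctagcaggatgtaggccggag
RT1-S2, chr20:2654804-2655103, plus strand: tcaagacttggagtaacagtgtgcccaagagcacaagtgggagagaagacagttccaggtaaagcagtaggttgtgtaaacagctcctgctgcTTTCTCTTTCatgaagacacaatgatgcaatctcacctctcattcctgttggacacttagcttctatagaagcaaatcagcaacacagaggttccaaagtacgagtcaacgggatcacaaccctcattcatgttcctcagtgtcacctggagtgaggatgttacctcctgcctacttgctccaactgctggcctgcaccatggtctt
RT1-M3-1, chr20:1333317-1333616, minus strand: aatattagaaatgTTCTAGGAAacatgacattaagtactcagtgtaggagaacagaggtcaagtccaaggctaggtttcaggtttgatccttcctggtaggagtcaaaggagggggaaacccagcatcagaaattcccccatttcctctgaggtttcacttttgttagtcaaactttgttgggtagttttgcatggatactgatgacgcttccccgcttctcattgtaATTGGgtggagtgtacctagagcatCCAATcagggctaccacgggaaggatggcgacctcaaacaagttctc

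The response element core was read as TTTCACTTTC in RT1-N3 and as TTTCTCTTTC in RT1-S2, so 2 of the 7 windows held it, against 3.92% of all 33469 promoter windows in the table. The gamma-activated site was TTCTAGGAA in RT1-M3-1 and was present in 1 of 7 windows, against 8.87% of all windows. A CCAAT box was found in RT1-N3 and RT1-M3-1, which is 2 of 7 windows against 37.5% of all. The cyclic AMP response element TGACGTCA and the kappaB motif (GGG, any 2 bases, TTTCC) were in 0 of the 7 windows, against 1.83% and 1.53% of all windows. Both strands were searched, none of the capitals of 1 motif overlap those of another, and a match describes the letters in the window and not a bound factor.

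RT1-M6-1 and RT1-M6-2 are neighbouring genes, and their windows are shown as a pair because their probes behaved alike. In this pair the capitals mark the bases that differ between the aligned windows.

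RT1-M6-1, chr20:1571221-1571520, plus strand: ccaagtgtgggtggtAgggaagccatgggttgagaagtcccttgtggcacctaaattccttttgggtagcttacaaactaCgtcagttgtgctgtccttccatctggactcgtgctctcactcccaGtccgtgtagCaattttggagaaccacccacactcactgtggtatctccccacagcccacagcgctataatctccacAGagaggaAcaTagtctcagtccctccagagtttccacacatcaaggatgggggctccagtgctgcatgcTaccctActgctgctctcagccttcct
RT1-M6-2, chr20:1588283-1588582, plus strand: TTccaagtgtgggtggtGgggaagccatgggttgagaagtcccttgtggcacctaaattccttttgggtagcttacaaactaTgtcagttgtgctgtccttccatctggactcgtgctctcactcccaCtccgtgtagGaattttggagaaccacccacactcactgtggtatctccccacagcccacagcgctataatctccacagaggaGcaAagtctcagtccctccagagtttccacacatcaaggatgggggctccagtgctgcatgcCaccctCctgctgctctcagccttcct

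These windows were identical at 290 of 302 aligned columns (96.0%), with 8 mismatched and 4 gapped columns. The next most similar pair of member windows, RT1-M6-1 and RT1-S2, was identical at 55.7% of columns. The sequences of the array probes were not used here, so binding of a probe to the transcript of a related RT1 gene was not tested, and each value below is that of a probe rather than of a gene shown to be read alone.

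Every one of the 8 genes had at least 1 probe higher in NDMA-treated cortex. Of the 17 probes 14 passed the detection filter, and 12 of these were higher at an adjusted p under 0.05 in the limma fit over all probes, with 0 lower. The same threshold was passed by 2.99% of all probes, in the higher direction by 2.5% and in the lower direction by 0.485%, and since the genes were chosen on this contrast nothing is read from the difference. The differences of the 14 probes ranged from 0.51 to 2.26 with a median of 0.99, where the median over all probes was -0.04. The lowest, RT1-T18 A_64_P064336, passed the detection filter only through the NDMA arrays. A difference between 0.7 and 1.2 was found for 11 of the 14, as for 2.63% of all probes. The groups did not overlap for 13 of the 14 probes, against 26.9% of all probes in either direction and 10.9% with every NDMA animal above every control.

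**Figure D1:**
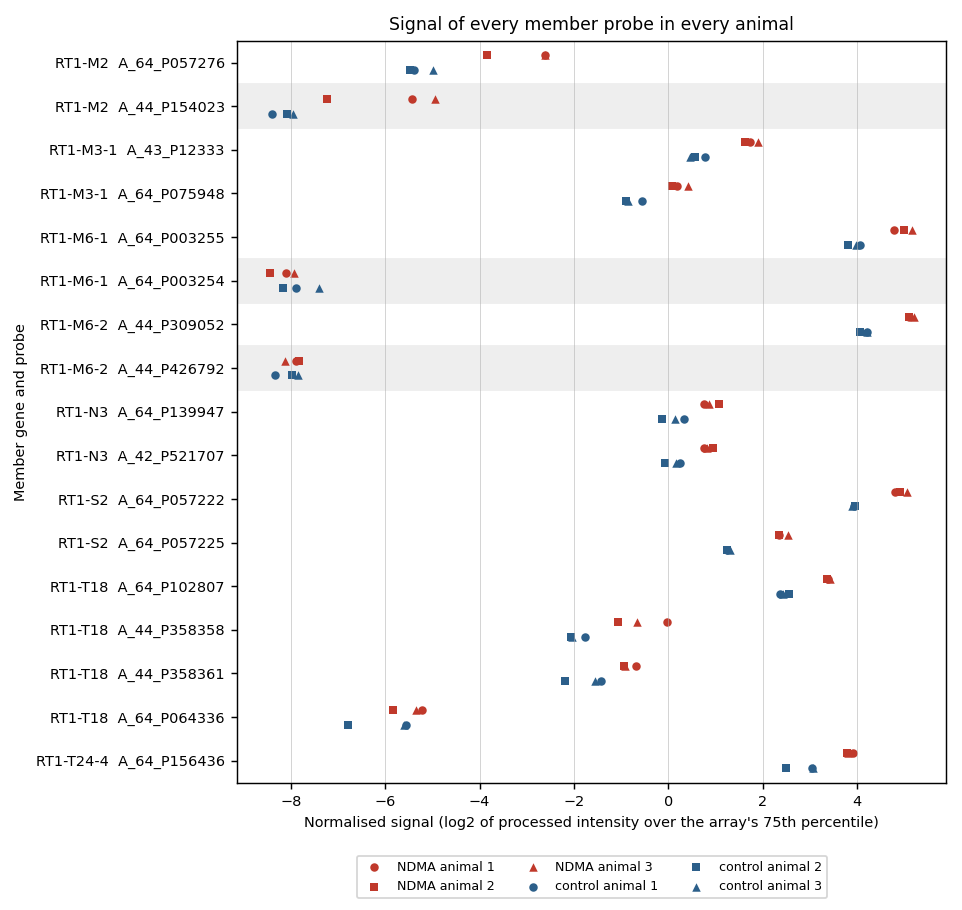
Normalised signal (log2 of the processed intensity over the array's 75th percentile) of all 17 probes of the 8 genes, 1 point per animal, with NDMA animals in red above controls in blue in each row and shaded rows for the 3 probes below the detection filter. Of the 14 unshaded probes, 13 show every NDMA animal to the right of every control, and the exception is RT1-T18 probe A_64_P064336.

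These counts depended on the slide and on single animals. With slide as a block, NDMA animal 1 alone is set against the 3 controls of its slide. The differences of the 14 probes were then 0.64 to 2.68 with a median of 0.95, against -0.03 over all probes. The calls were not kept in that fit, which has 1 NDMA animal to go on. The count of 12 fell to 6 without NDMA animal 3 or control 3, to 7 without control 1 or control 2, and to 8 without NDMA animal 1 or NDMA animal 2.

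RT1-M3-1 encodes a heavy chain of the H2-M3 type, which in mice presents N-formylated peptides of bacterial or mitochondrial origin. Its probe A_43_P12333 read 1.73, 1.64 and 1.90 in the NDMA animals, against 0.77, 0.56 and 0.47 in the controls. All NDMA animals were above all controls, and each group was tight. The difference was 1.16 ± 0.12 (SE, n = 3 per group), or 2.23-fold. The other probe, A_64_P075948, read 0.19, 0.09 and 0.41 in the NDMA animals and -0.56, -0.90 and -0.86 in the controls. This was a difference of 1.00 ± 0.13 (SE). With an animal left out, A_43_P12333 passed in 6 of 6 fits and A_64_P075948 in 3 of 6. On both probes NDMA animal 3 was highest, NDMA animal 2 was lowest of the treated animals and control 1 was highest of the controls, while the lowest animal was control 3 on A_43_P12333 and control 2 on A_64_P075948.

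RT1-M6-1 and RT1-M6-2 are M-region class Ib genes, and each was represented by a bright probe and by a probe at background. The bright probe of RT1-M6-1, A_64_P003255, read 4.78, 5.01 and 5.16 in the NDMA animals and 4.06, 3.81 and 3.98 in the controls, a difference of 1.04 ± 0.13 (SE, 2.05-fold). The bright probe of RT1-M6-2, A_44_P309052, read 5.11, 5.10 and 5.21 in the NDMA animals and 4.21, 4.06 and 4.21 in the controls, a difference of 0.98 ± 0.09 (SE, 1.97-fold). For both probes the groups were separated by more than the range within either group. The other probes of these genes, A_64_P003254 and A_44_P426792, were not well above background on any of the 6 arrays, and no fold is given for them. The probes of RT1-M6-1 and of RT1-M6-2 therefore disagree on whether the transcript is detected in renal cortex at all.

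RT1-M2 is the first of the 8 genes along chromosome 20, beside an olfactory receptor gene and 34 genes before RT1-M3-1. Its probe A_64_P057276 had processed intensities of 173, 91.4 and 213 in the NDMA animals, against 24.9, 22.4 and 32.6 in the controls, and was well above background on all 6 arrays. On the log2 scale these were -2.60, -3.84 and -2.61 in the NDMA animals and -5.39, -5.47 and -4.98 in the controls. NDMA animals 1 and 3 were alike and animal 2 stood about midway between them and the controls. The difference of 2.26 ± 0.35 (SE, 4.80-fold) was the largest of the probes that passed the filter. It was 0.88 when the background was corrected with normexp, and the probe then no longer passed. With an animal left out, the probe passed in only 1 of 6 fits, that without NDMA animal 2.

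The other RT1-M2 probe, A_44_P154023, did not pass the filter. It read 24.3, 8.72 and 42.5 intensity units in the NDMA animals and 3.07, 3.66 and 4.14 in the controls, and was well above background in NDMA animals 1 and 3 only. With controls held at the lowest signal well above background, NDMA was at least 1.18-fold higher on this probe. As on A_64_P057276, NDMA animal 2 was the lowest of the treated animals.

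RT1-S2, RT1-N3, RT1-T18 and RT1-T24-4 lie together in the other class I region of chromosome 20, in the order RT1-T18, RT1-S2, RT1-N3 and RT1-T24-4. By the RefSeq table, 152 genes lie between RT1-M6-2 and RT1-T18, 9 between RT1-T18 and RT1-S2, 2 between RT1-S2 and RT1-N3, and 1 between RT1-N3 and RT1-T24-4. The last of these is RT1-S3, the counterpart of mouse Qa-1, a molecule that shows leader peptides of other class I chains to natural killer cell receptors.

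RT1-S2 was read by 2 probes that both passed the threshold. Probe A_64_P057225 read 2.36, 2.35 and 2.53 in the NDMA animals and 1.24, 1.24 and 1.31 in the controls, a difference of 1.15 ± 0.09 (SE, 2.21-fold). Probe A_64_P057222 read 4.80, 4.90 and 5.06 in the NDMA animals and 3.95, 3.95 and 3.89 in the controls, a difference of 0.99 ± 0.09 (SE, 1.99-fold). The controls spanned 0.07 and 0.06 on these probes, the smallest control ranges of the 14, and NDMA animal 3 was the highest on both.

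RT1-N3 had the smallest differences of the probes that passed. Probe A_42_P521707 read 0.75, 0.96 and 0.82 in the NDMA animals and 0.25, -0.07 and 0.16 in the controls, a difference of 0.73 ± 0.11 (SE, 1.66-fold). Probe A_64_P139947 read 0.76, 1.08 and 0.87 in the NDMA animals and 0.33, -0.12 and 0.15 in the controls, a difference of 0.78 ± 0.15 (SE, 1.72-fold). Both probes ranked all 6 animals in the same order, with NDMA animal 2 at the top and control 2 at the bottom. Neither probe passed when any of the 6 animals was left out.

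RT1-T18 carries a name shared with a gene of the mouse T region and was read by 4 probes. The brightest, A_64_P102807, read 3.39, 3.36 and 3.43 in the NDMA animals and 2.38, 2.56 and 2.44 in the controls, a difference of 0.93 ± 0.08 (SE, 1.91-fold). On A_44_P358358 the NDMA animals read -0.04, -1.06 and -0.66 and the controls -1.77, -2.07 and -2.05, a difference of 1.38 ± 0.26 (SE), with NDMA animal 1 well above animals 2 and 3. With slide as a block that difference was 1.93. This probe passed in 2 of the 6 fits with an animal left out. On A_44_P358361 the NDMA animals read -0.68, -0.95 and -0.92 and the controls -1.42, -2.18 and -1.54, a difference of 0.87 ± 0.21 (SE) that did not pass (adjusted p = 0.101) although the groups did not overlap.

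The fourth RT1-T18 probe, A_64_P064336, read -5.23, -5.82 and -5.36 in the NDMA animals and -5.56, -6.78 and -5.60 in the controls. Its groups overlapped, since NDMA animal 2 lay below controls 1 and 3. It was well above background on 3 of 3 NDMA arrays and 1 of 3 control arrays, so it entered the fit only through the NDMA arrays. The difference was 0.51 ± 0.36 (SE, adjusted p = 0.477), and -0.09 with normexp. The 4 probes thus agree in sign on the processed signal, and the dimmest of them turned under the normexp setting.

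RT1-T24-4 had a single probe, A_64_P156436, which read 3.92, 3.80 and 3.82 in the NDMA animals and 3.04, 2.50 and 3.07 in the controls. The NDMA animals lay close together, while control 2 stood below controls 1 and 3. The difference was 0.98 ± 0.17 (SE, 1.97-fold). This probe passed in only 1 of the 6 fits with an animal left out, that without control 2.

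**Figure D2:**
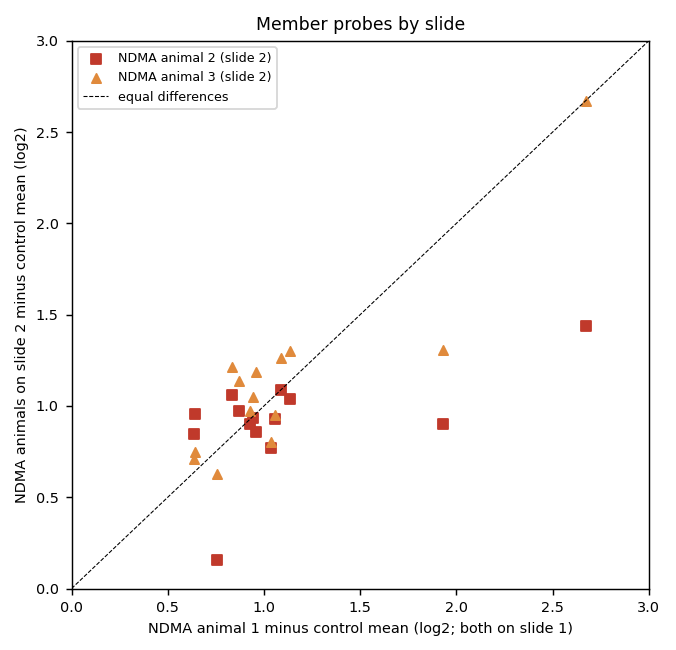
Difference of each NDMA animal on slide 2 from the control mean (y axis, log2) against that of NDMA animal 1, which shared slide 1 with the controls (x axis, log2), for the 14 probes that passed the filter, with squares for animal 2, triangles for animal 3 and a dashed line of equal differences. NDMA animal 1 was 0.64 to 2.68 above the control mean, and the squares farthest below the line, at the right, are RT1-M2 and RT1-T18 probe A_44_P358358.

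Within the slide that held both groups, NDMA animal 1 was above all 3 controls on 14 of 14 probes. The share of all probes with this order was not counted, and the genes were chosen on a contrast that includes this animal. Nothing is therefore read from that count. The highest NDMA animal was animal 3 on 7 of the 14 probes, animal 1 on 5 and animal 2 on 2. RT1-M2 and RT1-T18 probe A_44_P358358 were the probes on which animal 2 fell farthest short of animal 1.

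Among other RT1 class I genes, 43 were listed and 18 were measured, each by its brightest probe, and 9 rose while 9 did not pass, and the median difference was 0.94. Over all genes with a symbol 3.56% were higher and 0.485% lower. RT1-CE13 rose by 1.15 ± 0.10 (SE), RT1-CE12 by 1.09 ± 0.10 and RT1-CE4 by 0.84 ± 0.08, all of them genes of the CE series. RT1-CE6, counted among those that rose, passed the detection filter only through the NDMA arrays. RT1-M5, an M-region gene, was the lowest with -0.40 ± 0.10 (adjusted p = 0.102 in limma). All 3 NDMA animals lay below all 3 controls on it. RT1-N2 differed by 0.34 ± 0.18 with overlap of the groups and did not pass. RT1-M4, RT1-M1-2, RT1-M1-4 and RT1-T24-2 had probes, none of which passed the detection filter. RT1-S3, the neighbour of RT1-N3 and RT1-T24-4, differed by 0.69 ± 0.23 on its brighter probe, which did not pass, and by 0.73 ± 0.10 on its other probe, which did.

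**Figure D3:**
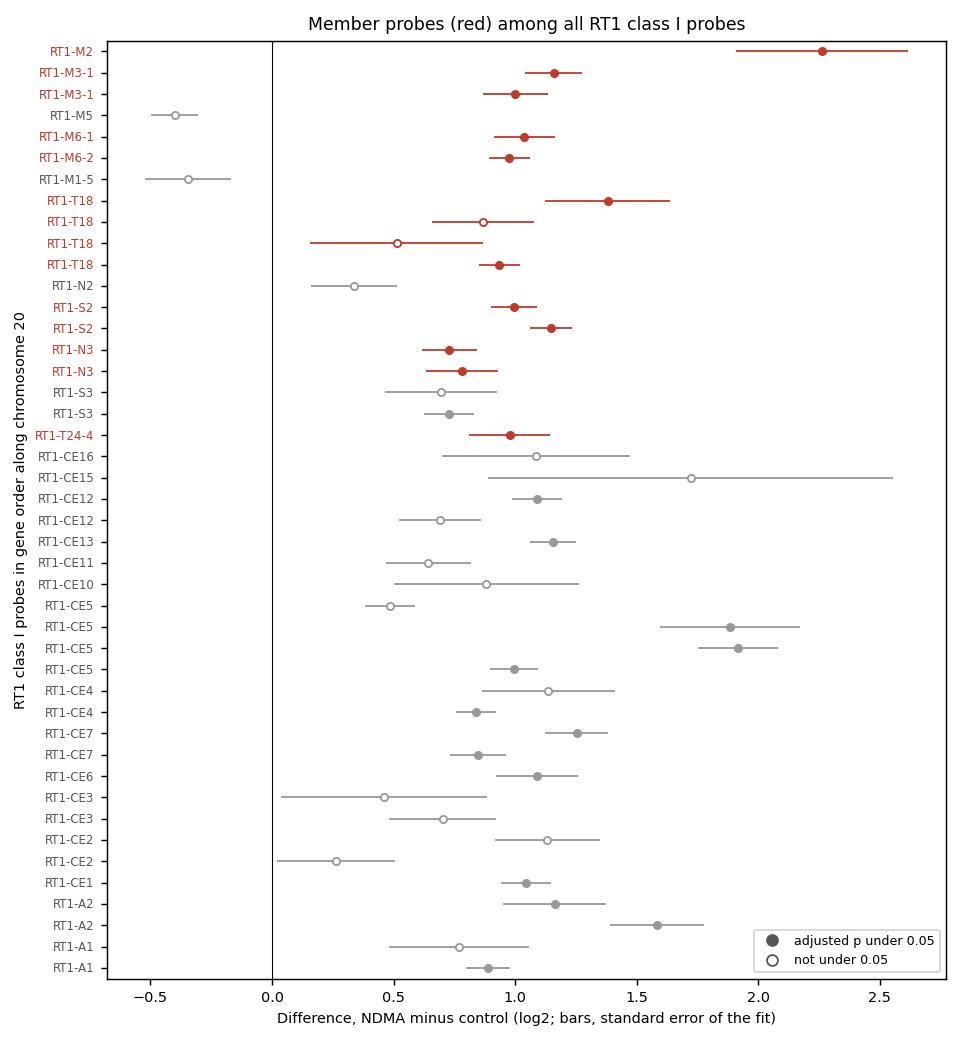
Difference, NDMA minus control (log2), with the standard error of the fit, for all RT1 class I probes that passed the filter, in gene order along chromosome 20, with the 8 described genes in red, other RT1 class I genes in grey, and filled points for an adjusted p under 0.05. All 14 red points lie right of 0, and 2 of the 30 grey points, RT1-M5 and RT1-M1-5, lie left of it.

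Counted by probe, 14 of the 30 probes of other RT1 class I genes were higher and 0 lower, against 2.5% and 0.485% of all probes. Among the 14 was RT1-CE6, which passed the detection filter only through the NDMA arrays. The 30 had a median of 0.88 and a range of -0.40 to 1.92. Every NDMA animal was above every control on 21 of these 30 probes, and below every control on 1. Over all probes the first order was found for 10.9%, and either order for 26.9%. The controls spread more on these 30 probes than on those of the 8 genes. The median range over the 3 controls was 0.53 on the former and 0.31 on the latter, against 0.23 for all probes. A control range above 1 was found for 1 of 14 probes of the 8 genes, RT1-T18 A_64_P064336, and for 4 of 30 probes of other RT1 class I genes, against 4.46% of all probes. No test of these spreads was made.

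Where the controls spread, the same animal stood apart. Among probes whose controls spanned more than 0.5, control 2 was the one farthest from the other controls on 3 of 3 probes of the 8 genes and on 15 of 16 probes of other RT1 class I genes, against 28.9% of 8019 probes in all. On the 3 probes of the 8 genes, which read RT1-T18 (A_44_P358361 and A_64_P064336) and RT1-T24-4, control 2 was the low one. On the 15 probes of other RT1 class I genes it was the high one on 10, as on RT1-CE16, RT1-CE15 and RT1-CE3, and the low one on 5, as on RT1-CE10. On RT1-CE15 the NDMA animals read 0.57, -1.96 and -1.79 and the controls -3.31, -1.47 and -3.56, so that control 2 lay above NDMA animals 2 and 3. This pattern was noticed after the values were seen, and the part of RT1 haplotype in it was not tested.

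**Figure D4:**
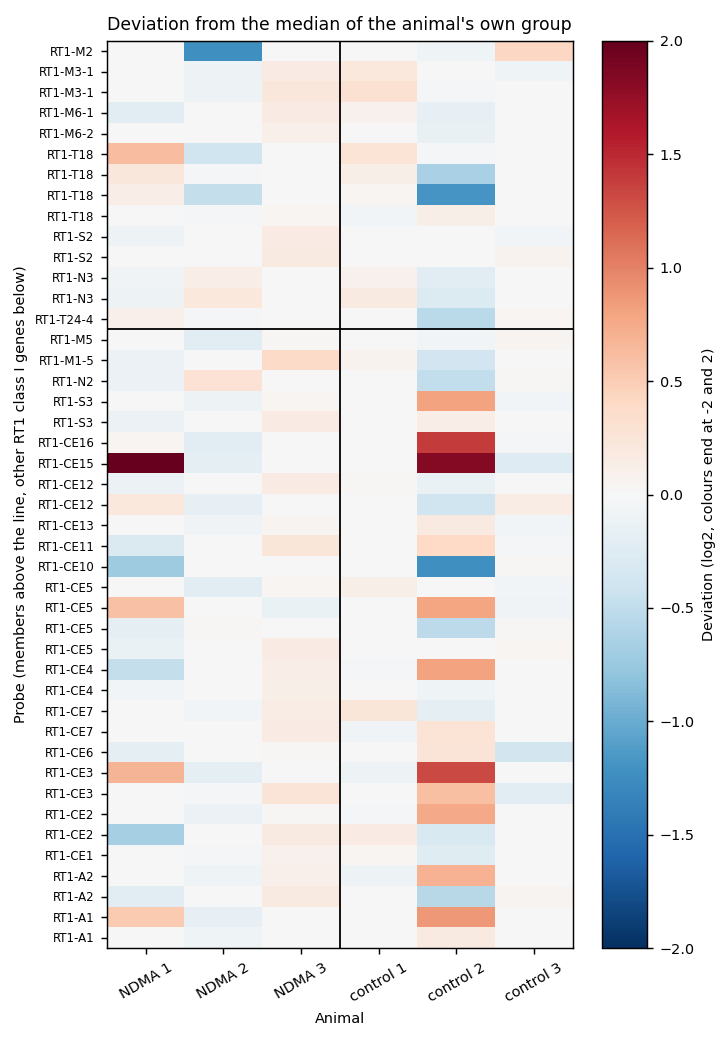
Deviation of each animal from the median of its own group (log2, colours end at -2 and 2) for the 14 probes of the 8 genes, above the horizontal line, and the 30 probes of other RT1 class I genes below it, with NDMA animals left of the vertical line and controls right of it. The column of control 2 holds most of the strong colours among controls, in blue for RT1-T18, RT1-T24-4 and RT1-CE10 among others, and in red for RT1-CE16, RT1-CE15 and RT1-CE3 among others.

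Most class I heavy chains need a light chain and a peptide. Of 13 measured genes of light chain and peptide loading, 10 rose and 3 did not pass, and the median was 0.85. Over all genes with a symbol 3.56% were higher, and the median was -0.04. Beta-2-microglobulin, B2m, read 8.03, 8.06 and 8.21 in the NDMA animals and 7.47, 7.60 and 7.42 in the controls on the brightest of its 5 probes. The groups did not overlap and the rise was 0.61 ± 0.09 (SE, 1.52-fold, adjusted p = 0.0280). Tap1, a subunit of the transporter that carries peptides into the endoplasmic reticulum, rose by 2.43 ± 0.16 (SE, 5.39-fold) and its partner Tap2 by 1.40 ± 0.20. Psmb9 and Psmb8, catalytic subunits of the immunoproteasome, rose by 2.43 ± 0.12 and 2.33 ± 0.21, and Psmb10 by 1.83 ± 0.13. The general folding factors Calr, Canx and Pdia3 had differences of 0.02, 0.04 and 0.06 and did not pass. Nlrc5, the transactivator of class I genes, and the trimming peptidase Erap1 were not measured here.

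**Figure D5:**
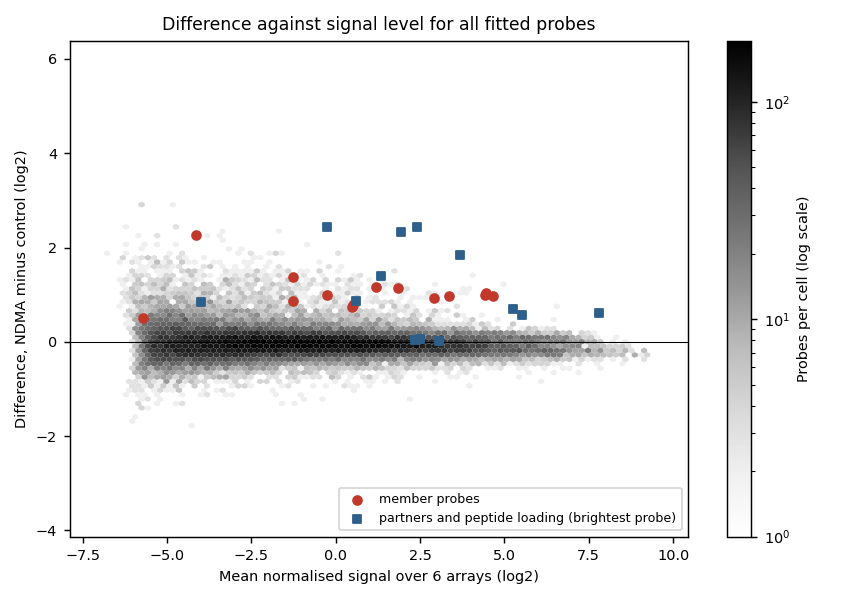
Difference, NDMA minus control (log2), against the mean normalised signal over the 6 arrays (log2) for all 43118 fitted probes (grey, number of probes per cell on a log scale), the 14 probes of the 8 genes (red circles) and the brightest probe of each of 13 genes of light chain and peptide loading (blue squares). The red circles lie between 0.51 and 2.26, and the 3 squares nearest 0 are Calr, Canx and Pdia3.

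Of 6 measured class I-like genes outside the complex, 1 rose and 5 did not pass, none of them lower past the threshold. The median was 0.56, and over all genes with a symbol 3.56% were higher. The one that rose, Raet1l, belongs to a family of ligands of the activating receptor NKG2D, was at least 1.43-fold higher in NDMA animals, since no control array had it well above background. Cd1d1, which presents lipids, differed by 0.13 ± 0.10 (SE) and Hfe, a regulator of iron uptake, by 0.24 ± 0.13. Fcgrt, the neonatal Fc receptor, differed by -0.22 ± 0.09, with every NDMA animal below every control. Procr, the endothelial protein C receptor, differed by 1.22 ± 0.36 with no overlap of the groups, and Azgp1 by 0.88 ± 0.29 with overlap, and neither passed.

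Of 13 measured genes listed as receptors, or adaptors of receptors, for class I molecules, 4 rose and the other 9 did not pass. The median was 0.82, and over all genes with a symbol 3.56% were higher. Whether each listed product binds class I or is made by lymphocytes was not examined, Lilrb4 among them. Ly49si1, a natural killer cell lectin receptor, rose by 2.12 ± 0.17 (SE), Klrc3, of the NKG2 family, by 1.22 ± 0.11, Hcst, the adaptor of NKG2D, by 1.06 ± 0.10 and Lilrb4 by 1.77 ± 0.32. Klrd1, which encodes CD94, the partner of NKG2 chains that bind Qa-1, had a difference of -0.58 ± 0.19 and did not pass. Every NDMA animal was below every control on it. Klrk1, which encodes NKG2D itself, had a difference of 0.10 ± 0.07 and did not pass. The CD8 chains Cd8a and Cd8b differed by 0.93 ± 0.24 and 1.01 ± 0.26 and did not pass. On Klrk1, Cd8a and Cd8b every NDMA animal was above every control. Groups without overlap, in either direction, were found for 26.9% of all probes. In the lists of other RT1 genes, peptide loading, class I-like genes and receptors, 24 of 50 measured genes rose, against 3.56% of all genes. That count was 13 without NDMA animal 2 or NDMA animal 3, 14 without control 1 and 4 with slide as a block.

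Most measured macrophage and T cell markers also rose. Of 10 measured macrophage and dendritic cell markers 7 rose, against 3.56% of all genes with a symbol. Adgre1 (0.15 ± 0.17, SE), Cd14 (0.35 ± 0.16) and Itgam (0.81 ± 0.59) did not pass, with overlap of the groups on each. The summed level of the 10 was 48.6 to 57.9 in NDMA animals and 19.1 to 23.8 in controls. It is on the linear scale, in multiples of the 75th percentile, and carried mostly by the brightest probes. Of 11 measured T and natural killer cell markers 8 rose, against the same share of all genes. Their summed levels were 5.88 to 6.82 in NDMA animals and 1.98 to 2.67 in controls. Cd3e, counted among those that rose, passed the detection filter only through the NDMA arrays. Ncr1, a defining natural killer cell receptor, did not pass the detection filter, and the natural killer marker Klrb1a differed by -0.40 ± 0.12 (SE) and did not pass the test. B and plasma cell markers summed to 1.16 to 1.34 in NDMA animals and 1.13 to 1.48 in controls, with a median difference of 0.12. Of 5 measured, Fcrla rose by 0.81 ± 0.12 (SE), and Blk, which passed the detection filter only through the NDMA arrays, was at least 1.71-fold higher in NDMA animals. Cd79b and Pax5 had differences of -0.08 ± 0.37 and -0.39 ± 0.18 (SE) and did not pass. Class I genes are expressed by leukocytes as well as by kidney cells, more cells of a type and more RNA per cell cannot be told apart in whole cortex, and the part of these cells in the class Ib differences was not tested.

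The genes whose levels followed RT1-M2 probe A_64_P057276 most closely over the 6 arrays, out of 12134 named genes outside RT1, were Jak2 (Pearson r = 0.997), Eeig2 (0.985), Fos (0.983), Fut7 (0.980) and Cldnd1 (0.980). Their own differences were 0.29 ± 0.09 (SE) for Jak2, a kinase of cytokine receptors, 0.62 ± 0.13 for Eeig2, 0.94 ± 0.15 for Fos, an immediate early transcription factor, 1.37 ± 0.33 for Fut7, a fucosyltransferase of selectin ligands, and 0.16 ± 0.07 for Cldnd1. The arrays shared groups and slides, so these values are a description.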

How the data were processed

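Total RNA from the renal cortex of 6 rats was hybridised, after Cy3 labelling, to Agilent arrays of the 1-colour type, 1 per animal, per the labels' protocols. The authors extracted spot intensity values with Agilent Feature Extraction (10.7 per the submitters' processing notes, 10.7.1.1 in the headers of the files). Per the file headers, that deposited intensity had its background subtracted and a spatial trend removed within each array, without scaling across arrays. A linear ratio fills the deposited value table, and it matched the processed intensity over its array's 75th percentile to within 0.00174 on the log2 scale (values above 0.1), so its scale and direction are known and no centring was found. Its columns had medians of 0.115, 0.112 and 0.114 for NDMA and 0.112, 0.110 and 0.114 for control.

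Here log2 of the processed intensity minus the array's 75th percentile over non-control probes was fitted probe by probe with limma's lmFit and eBayes (limma 3.58.1, R 4.3.3; two-sided; 4 residual degrees of freedom and a prior of 2.40), with Benjamini-Hochberg adjustment over 43118 probes and a threshold of 0.05. Outlier-flagged spots (18) were set missing, none of them on a probe of the 8 genes, and none of those probes was saturated. The normexp alternative used the median signal, the local background and an offset of 50, and the other alternatives changed the scaling, the filter, the variance model, the blocks or the animals. The number of arrays limits the precision, and an exact permutation test of 3 against 3 cannot go below p = 0.1. Bounds written as "at least" set the NDMA mean against a control mean in which each array contributes the lowest signal that is well above background, or the probe's signal where larger. Genes were named by RefSeq accession through the table of rat assembly GRCr8 (27348 of 29123 NM accessions matched), and listed genes were read by their brightest probe past the filter. The files' own annotation is on rn4, so coordinates are given only for the GRCr8 promoter windows. The script for the fit was tested on simulated data.

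The 8 genes, the lists and the tests were chosen with earlier results of these data known. Named from each list were up to 3 genes past the threshold by smallest p, together with B2m, Tap1, Tap2, Nlrc5 and Psmb8, and, for likeness, the 5 genes with the highest r to the probe with the largest difference. Other genes named from the lists were chosen after their values were seen, such as Psmb10, Lilrb4, RT1-M5, RT1-S3, RT1-N2, RT1-CE6, Calr, Klrd1, Cd1d1, Cd3e, Adgre1, Cd79b and Pax5. So were the RT1 probes named for their control values.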

Additional observations from a re-analysis of the deposited data

How the results depend on the processing

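Of 16 alternatives with a value per probe, 4 change only the test and leave the difference as it is, and slide 1 alone repeats the slide block. Under the other 11 the 14 probes of the 8 genes had a positive difference in 153 of 154 values, the exception being RT1-T18 A_64_P064336 with normexp, and over all 17 probes 181 of 187 values moved by less than the replicate SD and 6 by more. The setting with 1 probe per gene gives no value per probe. Of the probes of the 8 genes 12 passed, with 10 to 12 under quantile scaling, median scaling, normexp, a filter on all 6 arrays, trended variance and the authors' value table, and 8 of 8 with 1 probe per gene. The count was 6 with no filter on dim probes, 0 with slide as a block, 0 on slide 1 alone (13 of 14 at an unadjusted p under 0.05 in limma in each) and 6 to 8 with an animal left out. Over all probes 1289 passed, against 488 with no filter, 82 with slide as a block, 0 on slide 1 alone (4667 at an unadjusted p under 0.05) and 464 to 987 with an animal left out. Of the 50 related genes 24 passed, against 14 with no filter, 4 with slide as a block, 0 on slide 1 alone and 13 to 24 with an animal left out. These fits use fewer residual degrees of freedom or fewer animals, and the fit without a filter adjusts over more probes. Higher probes made up 83.8% of those passing, and 64.9% with normexp (942 higher, 509 lower), 74.1% with trended and robust variance, 94.3% with no filter and 95.3% with the replicate block.

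Deviations from the group means of animals with the same replicate number correlated at 0.026, -0.051 and 0.008, so the numbers do not pair the animals. With the replicate block 511 probes, 6 probes of the 8 genes and 16 of the 50 related genes passed. Signal near background limits RT1-M2, RT1-T18 A_64_P064336 and the dim RT1-M6 probes.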

Other observations

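RT1-A3, a classical class I gene that did not pass the detection filter, read -2.37, -6.56 and -6.21 in the NDMA animals and -6.59, -3.34 and -6.66 in the controls. NDMA animal 1 and control 2 stood far above the other 4 animals. RT1-CE3, on its brighter probe, read 2.05, 1.16 and 1.36 in the NDMA animals and 0.56, 1.97 and 0.65 in the controls, again with NDMA animal 1 and control 2 highest. RT1-CE10 read 0.31, 1.02 and 1.02 in the NDMA animals and 0.30, -0.92 and 0.33 in the controls, with the same animals lowest in their groups. These genes were picked after their values were seen, and the RT1 haplotypes of the animals were not given in the sources used here.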
